A study of Mus musculus with 24 samples.

Results

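Described here are 9 genes for proteins that coat or build lipid droplets: Plin1, Plin2, Plin3, Plin4 and Plin5 (the perilipins), Cidec, Fitm1, Fitm2 and Bscl2. They were chosen by name, with no measured value in the rule but with earlier results of these data known, out of the 24825 genes listed for each library. The cells came from the stromal vascular fraction of inguinal white fat of Nfia flox/flox mice and were immortalised with SV40 large T antigen, so the ctrl cells also carried the floxed alleles and the antigen. The 4 cell types were ctrl (empty retroviral vector), Cre (Cre recombinase), Cre + NFIA (Cre with full-length NFIA under a 3xFLAG tag) and Cre + NFIA Δpro#3, called the mutant below (Cre with a 3xFLAG-tagged form of NFIA from which a proline-rich stretch near the C-terminus is missing). Each was sampled undifferentiated, at day 0, and at day 7 of a thermogenic adipocyte protocol. For the first 48 h the protocol used 0.5 mM isobutylmethylxanthine, 125 nM indomethacin and 1 µM dexamethasone, with 850 nM insulin, 1 nM T3 (a thyroid hormone) and 1 µM rosiglitazone, an agonist of the adipocyte receptor PPARγ. After 48 h insulin, T3 and rosiglitazone were kept at the same concentrations. There were 3 libraries per group and 24 in all. Nothing in the labels says that the 3 came from separate cultures, so the p-values measure the spread between these libraries, which may be technical.

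A lipid droplet is a core of triglyceride and sterol ester under a single layer of phospholipid, and it forms at the endoplasmic reticulum. Seipin, the product of Bscl2, and the FITM proteins sit in the endoplasmic reticulum and act as the droplet forms, so they build droplets rather than coat them. The perilipins cover the surface and govern the access of lipases. CIDEC gathers where droplets touch and passes lipid from the smaller to the larger, which gives white adipocytes their large droplet.

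Levels are in FPKM, reads scaled by gene length and library total, so genes can be compared with each other. Library totals were 7.73 to 14.62 M reads. Differences between groups are in log2(FPKM + 1), a scale that understates the change of low genes. A gene "passed" when limma gave it a Benjamini-Hochberg adjusted p under 0.05 over the 12640 genes tested, and it was "called" when it also differed by at least 3-fold. Of the 9 genes 8 were tested, and Plin1, Plin5 and Cidec met the filter (3 or more libraries at 1 FPKM or above) through day 7 libraries alone. Nfia read over the whole gene did not fall in the libraries labelled Cre: it was at 6.47 ± 0.264 FPKM (SD, n = 3) in ctrl and 6.21 ± 0.773 in Cre at day 0, and at 9.55 ± 0.355 and 10.1 ± 0.588 at day 7. That value covers more than the floxed exon and so does not check the deletion. For Cre-expressing cells the paper reports efficient recombination by genomic PCR, and an almost complete loss of NFIA as mRNA and as protein. With the transgenes, whose reads it includes, Nfia averaged 60.7 to 101.9 FPKM.

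At day 7 the summed adipocyte markers were lower in Cre than in ctrl and Cre + NFIA, and lowest in the mutant. The droplet genes other than Plin3 and Fitm1 had this order too. Between Cre + NFIA and ctrl they did not all move together. There the marker sum, Plin2 and Cidec were lower in Cre + NFIA, while Plin4, Plin5 and Bscl2 were higher. The summed FPKM of 9 markers (Adipoq, Fabp4, Pparg, Cebpa, Lpl, Retn, Cd36, Lep and Slc2a4) at day 7 was 20242 to 23363 in ctrl, 3972 to 8527 in Cre, 19369 to 19568 in Cre + NFIA and 782 to 1959 in the mutant. The sum of 6 precursor markers (Pdgfra, Ly6a, Cd34, Dpp4, Dlk1 and Thy1) was 1932 to 2311 FPKM at day 0, and at day 7 it was 469 to 513, 1041 to 1157, 507 to 573 and 1167 to 1422 in the same order. The sums weigh most on Fabp4, at up to 18536 FPKM, and Ly6a, at 370 to 1968, so they do not show each marker. Lep (at most 12 reads) and Dpp4 (at most 6) were nearly absent. In whole cultures, fewer adipocytes and less RNA per adipocyte cannot be told apart. No gene of the endothelial, leukocyte, mural, muscle and mesothelial lists passed 8.23 FPKM in any library, and Ptprc, Adgre1, Cdh5, Emcn, Myod1, Ckm and Msln had at most 3 reads.

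Plin3, Plin4 and Plin5 lie on chromosome 17, Plin4 and Plin5 on the same strand with 1798 bases between them. In NCBIM37, the assembly behind mm9, Plin1 spans chr7:86866050-86877662, Plin2 chr4:86294290-86315964 and Cidec chr6:113374628-113385754, all on the minus strand. Plin4, Fitm2 and Bscl2 each overlap a coding gene on the other strand (Hdgfrp2, 2310001K24Rik and Gng3), and reads had been counted by strand. Promoters of 5 members are printed because these genes behaved in different ways: Plin1, Cidec and Plin4 were low at day 0 and high at day 7, Plin2 was well expressed at both, and Plin3 stayed near the same level. Each is the 250 bases before a RefSeq transcription start, with 1 exact match in NCBIM37, written 5′ to 3′ on the strand of the gene. Capitals mark a match on either strand to AGGTCA (the hexamer bound by nuclear receptors such as PPARγ), TTGGC (the core of the site that NFI proteins bind) or TATAA.
Plin1, chr7:86877663-86877912, minus strand: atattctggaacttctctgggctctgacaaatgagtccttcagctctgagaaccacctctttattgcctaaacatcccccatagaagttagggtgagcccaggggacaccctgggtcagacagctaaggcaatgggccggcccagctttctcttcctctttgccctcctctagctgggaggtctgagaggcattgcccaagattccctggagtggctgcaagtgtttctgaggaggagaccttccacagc
Cidec (upstream start), chr6:113385755-113386004, minus strand: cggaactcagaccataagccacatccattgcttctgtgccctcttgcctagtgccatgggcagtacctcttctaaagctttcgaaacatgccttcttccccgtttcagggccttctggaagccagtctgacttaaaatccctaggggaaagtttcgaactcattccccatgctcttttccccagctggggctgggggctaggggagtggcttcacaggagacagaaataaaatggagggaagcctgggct
Plin4, chr17:56249206-56249455, minus strand: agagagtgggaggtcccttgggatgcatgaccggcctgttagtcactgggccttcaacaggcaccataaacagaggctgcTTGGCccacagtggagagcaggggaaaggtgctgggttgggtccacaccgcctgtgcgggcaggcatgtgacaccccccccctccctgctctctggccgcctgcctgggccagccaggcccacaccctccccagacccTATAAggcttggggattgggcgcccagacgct
Plin2, chr4:86315964-86316213, minus strand: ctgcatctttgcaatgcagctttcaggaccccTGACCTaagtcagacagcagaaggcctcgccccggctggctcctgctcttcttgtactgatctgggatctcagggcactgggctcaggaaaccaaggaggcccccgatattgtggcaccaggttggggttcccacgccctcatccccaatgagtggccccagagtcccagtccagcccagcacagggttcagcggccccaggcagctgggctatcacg
Plin3, chr17:56429935-56430184, minus strand: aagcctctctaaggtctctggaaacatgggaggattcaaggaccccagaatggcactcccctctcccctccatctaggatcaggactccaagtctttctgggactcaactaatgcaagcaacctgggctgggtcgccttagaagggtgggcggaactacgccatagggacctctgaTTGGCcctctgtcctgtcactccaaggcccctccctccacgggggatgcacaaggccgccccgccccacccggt
AGGTCA stood in 14.0%, TTGGC in 41.5% and TATAA in 22.8% of 32851 RefSeq promoter windows of this length. Plin1 and this start of Cidec had none of the 3. The other RefSeq start of Cidec, not printed, had TTGGC 229 bases before it. Plin2 had AGGTCA, as its reverse complement, 218 bases before the start. Plin3 had TTGGC at 74 bases, and Plin4 had it at 170 bases with TATAA at 32. AGGTCANAGGTCA (0.0335% of windows), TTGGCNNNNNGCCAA (0.0365%) and CACGTG (6.02%) were in none of the members' windows. A match is a description of letters, and no match says only that these letters are not in the window.

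At day 0 the members fell into an expressed set and a nearly silent one. Plin2, the coat protein of most cells that store lipid, was at 33.2 to 55.7 FPKM over the 12 libraries. Plin3, which moves between the cytosol and young droplets, was at 35.1 to 43.5 FPKM, and Bscl2 was at 27.8 to 39.4. Fitm2, the widely expressed FITM gene, and Plin4, an exchangeable coat protein found mainly in adipocytes, were lower. Fitm2 was at 3.96 to 9.08 FPKM and Plin4 at 3.22 to 10.3. The nearly silent set comprised Plin1, which holds lipases off the adipocyte droplet until it is phosphorylated, with 1 to 12 reads per library, Cidec with 5 to 29, and Plin5, the perilipin of oxidative tissues that ties droplets to mitochondria, with 0 to 2. Fitm1, the FITM gene of muscle, had at most 1 read in any library at either day and 0 in 20 of 24.

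By day 7 the ctrl cells expressed Cidec and Plin2 most. Cidec was at 1583, 1899 and 1719 FPKM in the 3 ctrl libraries, from 6 to 16 reads (0.309 to 0.747 FPKM) at day 0. Plin1 was at 438, 516 and 453 FPKM, from 1 to 5 reads at day 0. The libraries of the 2 days were far apart for both genes. Plin4 was 64.7 times as high at day 7 as at day 0 (277 ± 17.4 against 4.28 ± 0.569 FPKM). Fitm2 was 34.1 times as high (171 ± 6.38 against 5.03 ± 0.381 FPKM), and Plin2 26.8 times (905 ± 99.3 against 33.7 ± 0.457). Bscl2 was induced least, by 5.25 times (161 ± 13.4 against 30.7 ± 2.54 FPKM). Plin5, with 3 reads over the ctrl libraries at day 0, was at 9.47, 15.1 and 13.3 FPKM at day 7. Plin2, Plin4, Fitm2 and Bscl2, which met the filter at both days, were called higher at day 7 in ctrl (limma, adjusted p at most 3.12e-13), where 5.64% of all genes tested were. Plin1, Plin5 and Cidec entered the test through day 7 alone, so their calls of day 7 above day 0 are no independent result. Plin3 fell by 0.21 (95% interval −0.35 to −0.07, adjusted p = 0.0102), where 38.1% of all genes passed as lower. That pass was lost with median-of-ratios size factors (−0.13, adjusted p = 0.144), without ctrl replicate 1 at day 0 (adjusted p = 0.0569) and without ctrl replicate 3 at day 7 (0.0634).

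**Figure D1:**
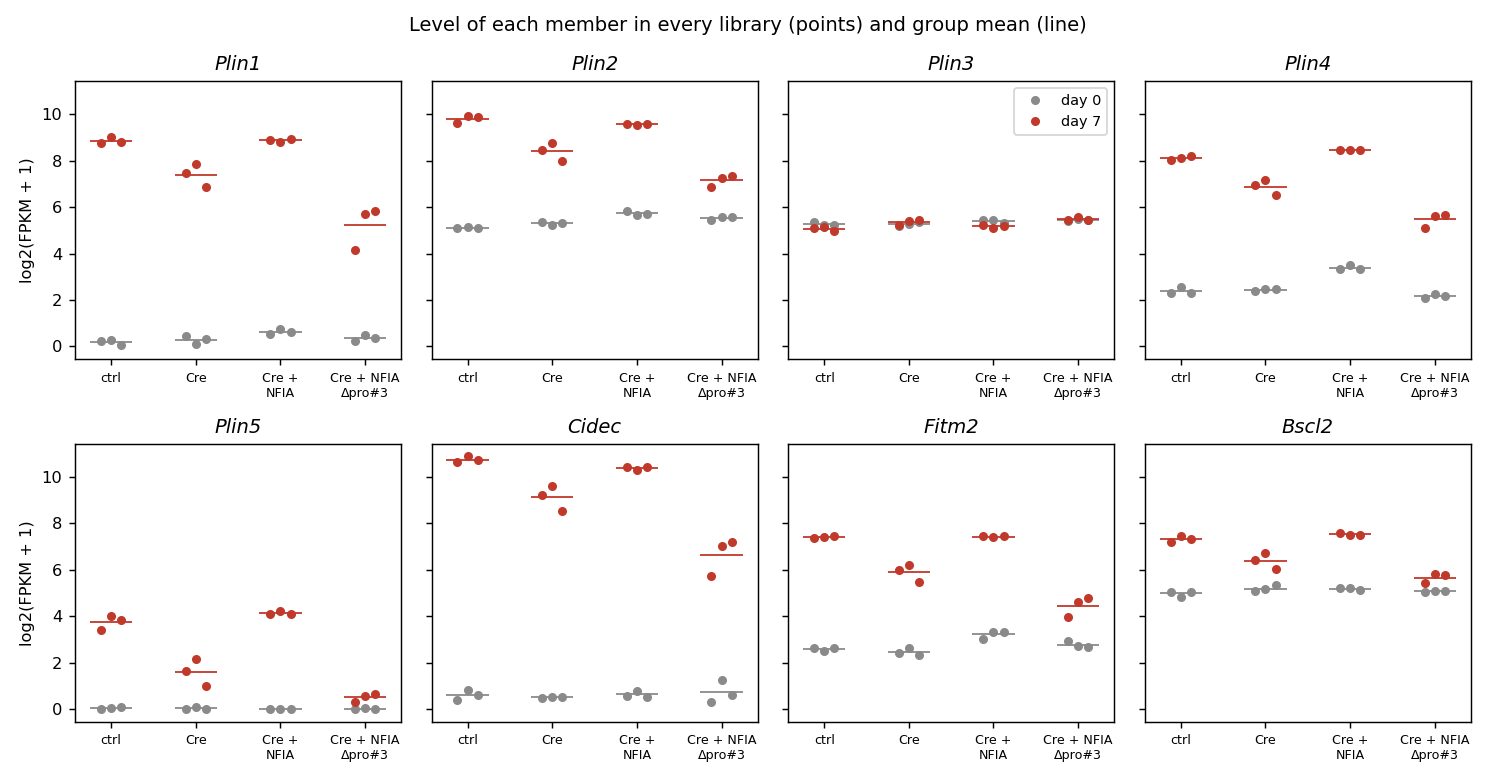
Level of 8 members as log2(FPKM + 1) (vertical axis) in the 4 cell types (horizontal axis), with 1 point per library, a line at the group mean, day 0 in grey and day 7 in red. Red points of ctrl and Cre + NFIA sit above those of Cre, and those of Cre above the mutant, for every member shown but Plin3, which spans 30.7 to 47.4 FPKM over both days.

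The libraries labelled Cre had less of each induced member at day 7 than ctrl. Plin1 was at 176, 233 and 116 FPKM in Cre, against 438, 516 and 453 in ctrl. Plin2 was at 355, 437 and 253 FPKM against 794, 987 and 932. Cidec was at 604, 784 and 365 FPKM against 1583, 1899 and 1719. In each the highest Cre library lay below the lowest ctrl library, and 64.0% of all genes were separated in one direction or the other. Plin5 was at 2.17, 3.48 and 0.977 FPKM in Cre, and its mean was 5.72 times as high in ctrl, the widest ratio of the set. The mean of Fitm2 was 2.87 times, that of Plin4 2.33 times and that of Bscl2 1.90 times as high in ctrl. All 7 genes passed as lower in Cre, where 22.7% of all genes did. The differences ran from −0.94 for Bscl2 (95% interval −1.26 to −0.62, adjusted p = 0.000169) to −2.14 for Plin5 (−2.67 to −1.61, adjusted p = 1.61e-05). The median over the 8 members tested was −1.44, and over all genes it was 0.09. Plin5 and Cidec (−1.63, adjusted p = 0.00128) were called, where 1.27% of all genes were called lower. This count of 2 hung on single libraries: it was 5 without Cre replicate 2, and 1 without Cre replicate 3 or without ctrl replicate 2.

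Plin3 went the other way. It was at 37.1, 41.7 and 42.4 FPKM in Cre and 32.9, 34.9 and 30.7 in ctrl. The groups did not overlap, which held for 64.0% of all genes. Plin3 was higher in Cre by 0.29 (95% interval 0.14 to 0.45, adjusted p = 0.00374), where 36.1% of all genes passed as higher, but not past the threshold with median-of-ratios size factors (0.18, adjusted p = 0.0790).

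With full-length NFIA the induced members were at the level of ctrl or near it. Plin1 was at 481, 452 and 485 FPKM in Cre + NFIA at day 7. Plin2 was at 756, 752 and 769 FPKM, and Cidec at 1379, 1262 and 1367. All 9 of these values lay above every Cre library of the same gene, and 70.2% of all genes were separated in one direction or the other. Plin4 was at 354, 347 and 347 FPKM, and Fitm2 at 173, 170 and 173. Bscl2 was at 190, 183 and 179 FPKM, and Plin5 at 16.3, 17.7 and 16.4. This group was the most even, with a coefficient of variation of 1.08% to 4.84% over the 7 genes against 22.4% to 56.7% in Cre. All 7 passed as higher than in Cre, where 27.0% of all genes did, from 1.13 for Bscl2 (95% interval 0.81 to 1.45, adjusted p = 2.96e-05) to 2.55 for Plin5 (2.02 to 3.08, adjusted p = 2.53e-06). Plin5 was called, where 2.13% of all genes were called higher, and the count of 1 became 3 without Cre replicate 1 and 4 without Cre replicate 2. Plin3 fell by 0.19 (95% interval −0.34 to −0.03, adjusted p = 0.0374), where 35.9% of all genes passed as lower. It did not pass without Cre replicate 2 or 3 or Cre + NFIA replicate 2 or 3 (adjusted p = 0.104, 0.123, 0.129 and 0.0767), nor with limma without a trend (adjusted p = 0.0518) or with median-of-ratios size factors (−0.10, adjusted p = 0.299). This comparison shares the Cre libraries with that of Cre against ctrl.

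Cre + NFIA was also set against ctrl directly at day 7. Of the 8 members 0 passed (limma, adjusted p 0.181 to 0.990), where 18.0% of all genes did. At an unadjusted p under 0.05 the count was 0, and with limma voom on recovered reads it was 0. Equal levels are not shown by this. The libraries of 5 members did not overlap, which held for 39.6% of all genes. Plin5 averaged 1.33 times, Plin4 1.26 times and Bscl2 1.14 times the level of ctrl, while Plin2 averaged 0.839 times and Cidec 0.771 times. With the spread taken from these 6 libraries alone, Plin4 passed as higher (0.34, adjusted p = 0.00793) and Cidec as lower (−0.37, adjusted p = 0.0251). The difference was 0.01 for Plin1 (95% interval −0.79 to 0.82; −0.02 with median-of-ratios size factors).

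**Figure D2:**
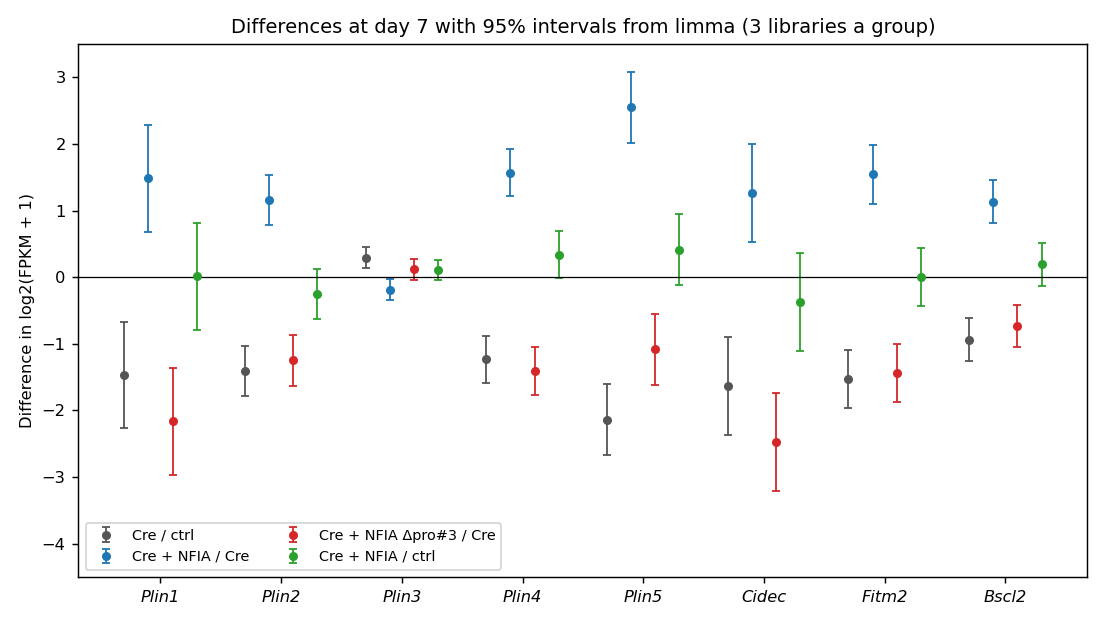
Difference in log2(FPKM + 1) at day 7 (vertical axis) for 8 members (horizontal axis) in 4 comparisons of 3 libraries against 3, as points with 95% intervals from limma. For the 7 induced members Cre against ctrl (grey) and the mutant against Cre (red) lie below 0 and Cre + NFIA against Cre (blue) above 0, while each interval of Cre + NFIA against ctrl (green) includes 0.

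In the mutant the induced members were lower still than in Cre. Cidec was at 52.5, 128 and 146 FPKM in the mutant at day 7, against 604, 784 and 365 in Cre. Plin1 was at 16.8, 51.6 and 56.5 FPKM against 176, 233 and 116. Plin5 was at 0.252, 0.487 and 0.580 FPKM, or 6, 12 and 15 reads. The first mutant library was the lowest for all 3 genes, and no mutant library reached the level of a Cre library. Plin2 was at 117, 154 and 159 FPKM, and Plin4 at 33.7, 48.1 and 50.2. Fitm2 was at 14.5, 23.6 and 26.7 FPKM, and Bscl2 at 42.0, 55.0 and 53.4. All 7 lay below every Cre library, and 32.8% of all genes were separated one way or the other. All 7 passed as lower, where 10.0% of all genes did. The differences ran from −0.73 for Bscl2 (95% interval −1.05 to −0.41, adjusted p = 0.00528) to −2.47 for Cidec (−3.21 to −1.74, adjusted p = 0.000777). Cidec and Plin1 (−2.17, 95% interval −2.97 to −1.36, adjusted p = 0.00207) were called, where 0.593% of all genes were called lower, and 4 members were without Cre replicate 3. With the spread from these 6 libraries alone Plin5 (adjusted p = 0.0594) and Bscl2 (0.0502) did not pass. Plin3 differed by 0.12 (95% interval −0.04 to 0.27, adjusted p = 0.293).

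Set against full-length NFIA, the mutant had less of each induced member. The mean of Plin5 was 38.2 times as high with full-length NFIA at day 7, that of Cidec 12.3 times and that of Plin1 11.3 times. Fitm2 was 7.96 times, Plin4 7.94 times, Plin2 5.29 times and Bscl2 3.67 times as high. These 7 genes were called, where 4.60% of all genes were called lower in the mutant, with differences from −1.87 for Bscl2 (95% interval −2.18 to −1.55, adjusted p = 2.82e-07) to −3.73 for Cidec (−4.47 to −3.00, adjusted p = 9.5e-07). Plin3 was higher in the mutant by 0.30 (0.15 to 0.46, adjusted p = 0.00223), where 40.4% of all genes passed as higher, but it did not pass with median-of-ratios size factors (0.18, adjusted p = 0.0589). That scaling moved the median of all genes here by −0.10. Nfia reads averaged 101.9 ± 8.44 FPKM in the mutant and 90.0 ± 6.68 with the full-length form. Against ctrl, the same 7 genes were called lower in the mutant, where 3.75% of all genes were. Cidec was 15.9 times (−4.11, 95% interval −4.84 to −3.37, adjusted p = 5.95e-07), Plin5 28.7 times, Plin1 11.3 times and Plin2 6.30 times as high in ctrl. Bscl2 had the smallest of these 7 differences (−1.67, −1.99 to −1.35, adjusted p = 9.79e-07). Plin3 was higher in the mutant than in ctrl by 0.41 (0.26 to 0.56, adjusted p = 0.000268), where 41.4% of all genes passed as higher. Both comparisons use the same mutant libraries.

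The rise from day 0 to day 7 was itself compared between cell types. In the mutant Cidec still rose by 5.93 (95% interval 5.32 to 6.53), Plin1 by 4.87 (4.27 to 5.48) and Bscl2 by 0.59 (0.34 to 0.84), the first 2 from 5 to 29 and 4 to 10 reads at day 0. Of the 4 genes that met the filter at both days and rose in ctrl, Plin2, Plin4 and Fitm2 were called higher at day 7 in the mutant and in Cre, where 1.14% and 2.26% of all genes were, and all 4 were in Cre + NFIA (5.78%). In the mutant Plin2 (1.64) and Fitm2 (1.68) were near the limit of 3-fold and were not called without its replicate 3 at day 7 or with a pseudocount of 5. In Cre + NFIA Plin5 was at 0 reads in all 3 libraries of day 0, and at day 7 it was at least 117-fold higher, with 3 reads per library as the floor. In the mutant the rise of Plin5 (0.50, adjusted p = 0.0424) was lost under 9 alternatives, among them no filter on low values (adjusted p = 0.0653).

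All 7 induced members rose less in Cre than in ctrl (interaction, adjusted p at most 0.00401), and 19.5% of all genes passed in that direction. The shortfall was called for Plin2 and Plin5, where 1.27% of all genes were called lower. This count of 2 became 4 without ctrl replicate 2 at day 0, ctrl replicate 1 at day 7 or Cre replicate 1 or 2 at day 7, and 1 without ctrl replicate 3 or Cre replicate 1 or 3 at day 0, or ctrl replicate 2 or Cre replicate 3 at day 7. They also rose less in the mutant than in Cre (adjusted p at most 0.0162, where 10.4% of all genes passed), and Plin1, Cidec and Fitm2 were called, where 0.736% of all genes were called lower. Without Cre replicate 2 or mutant replicate 1 at day 7 Bscl2 did not pass there (adjusted p = 0.0511 and 0.0527), nor with only these 4 groups in the fit (0.0715), and Plin5 did not with a pseudocount of 5 (0.0503). On recovered reads with limma voom, the interactions of Plin1, Plin5 and Cidec did not pass in either comparison (adjusted p 0.127 to 0.530), and their day 0 values rest on few reads. Plin1, Plin5 and Cidec met the filter through day 7 alone. Their interactions mostly restate the day 7 differences and are no independent result.

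Libraries of 1 group shifted together in Cre, the mutant and ctrl at day 7. In Cre at day 7 replicate 2 was the highest and replicate 3 the lowest for all 7 induced members, with the highest 1.58 to 3.57 times the lowest. Replicate 1 was the lowest for all 7 in the mutant (ratio 1.31 to 3.36) and in ctrl (1.08 to 1.60). Adipoq, the adiponectin gene, and Fabp4 had the same lowest library in these 3 groups, and Adipoq in Cre was at 522, 655 and 320 FPKM. Plin3 did not share the order, with a ratio of 1.12 to 1.14 in the same groups. In Cre + NFIA at day 7 no library was the lowest or the highest for all 7 (ratio 1.02 to 1.09). The part of adipocyte content in the differences between cell types was not tested.

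The make-up of the perilipins turned over with differentiation. In ctrl at day 0 Plin3 took 49.9% ± 1.5 and Plin2 44.3% ± 0.961 of the summed FPKM of Plin1 to Plin5. In ctrl at day 7 Plin3 took 1.94% ± 0.185, Plin1 27.7% ± 1.22 and Plin4 16.4% ± 1.15, while Plin2 took 53.3% ± 1.31. The sum was 76.2 ± 2.08 FPKM at day 0, and at day 7 it was 1696 ± 149 in ctrl, 685 ± 178 in Cre, 1633 ± 26.7 in Cre + NFIA and 273.5 ± 54.9 in the mutant. The mutant at day 7 lay between these states. Its Plin3 share was 20.1%, 15.7% and 13.7%, against 5.34%, 4.86% and 8.43% in Cre. Its Plin1 share was 8.0%, 17.1% and 18.3%, against 25.4%, 27.2% and 23.1% in Cre. No library overlapped in either share (exact permutation test, two-sided, p = 0.1, the smallest p that 3 against 3 allows, and 0.119 adjusted over 25 comparisons). Cre + NFIA differed from ctrl in 2 larger shares. The difference was −6.78 percentage points for Plin2 (46.5% against 53.3%) and 5.02 for Plin4 (21.4% against 16.4%), again at the smallest exact p of 0.1 (0.119 adjusted).

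**Figure D3:**
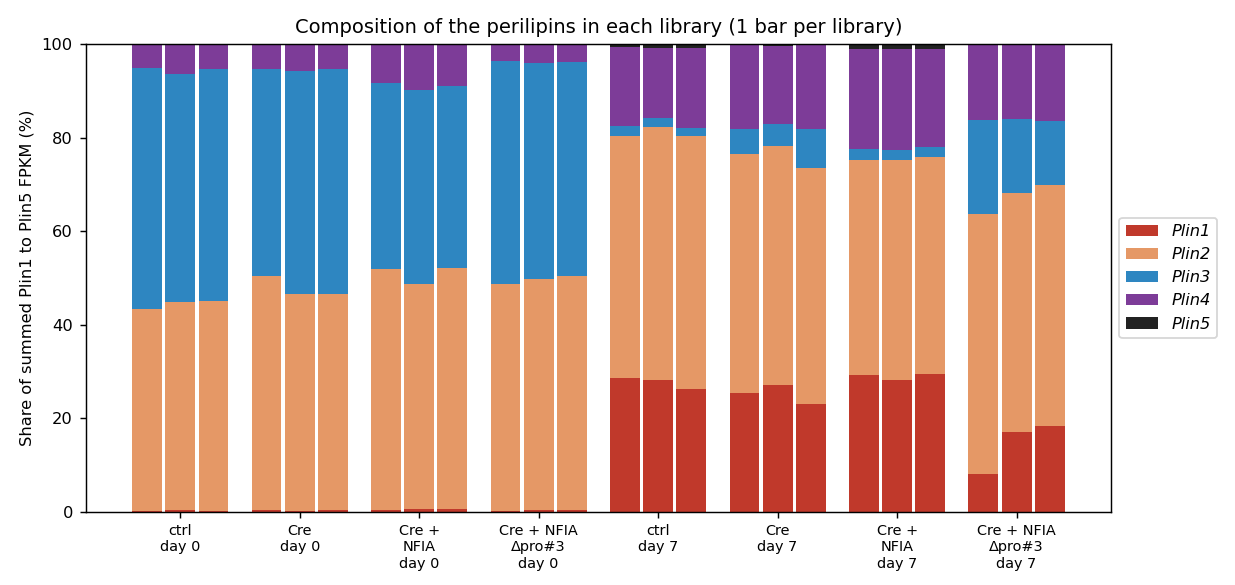
Share of the summed FPKM of Plin1 to Plin5 (vertical axis, %) in each of 24 libraries (1 bar per library, by cell type and day). Plin3 takes 38.8% to 51.5% at day 0, 1.78% to 2.26% in ctrl and Cre + NFIA at day 7 and 13.7% to 20.1% in the mutant at day 7.

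Before differentiation full-length NFIA came with more Plin4, Fitm2 and Plin2. Plin4 at day 0 was at 8.95, 10.3 and 9.06 FPKM in Cre + NFIA, against 4.22, 4.52 and 4.57 in Cre and 3.98, 4.94 and 3.93 in ctrl. Fitm2 was at 7.14, 8.90 and 9.08 FPKM against 4.31, 5.19 and 3.96 in Cre. Plin2 was at 55.7, 49.8 and 51.7 FPKM against 39.6, 36.6 and 39.1. The 3 Cre + NFIA libraries were above all Cre libraries for each of them, and 41.2% of all genes were separated in this comparison. Plin4 rose by 0.94 (95% interval 0.74 to 1.14, adjusted p = 2.96e-05), Fitm2 by 0.77 (0.52 to 1.02, adjusted p = 0.000498) and Plin2 by 0.44 (0.32 to 0.55, adjusted p = 0.000155). Plin1 passed as well (0.34, adjusted p = 0.0448), on 9, 12 and 11 reads against 7, 1 and 4, but it was lost with limma voom (adjusted p = 0.10), with all 24 libraries in the fit (0.418), with only these 2 groups (0.0743) and without Cre replicate 2 or 3 or any 1 of the Cre + NFIA libraries (0.0521 to 0.149). So 4 of 8 members passed as higher, where 14.7% of all genes did. The count called was 0 (4 at an unadjusted p under 0.05 with no fold limit, 0 called by limma voom), where 0.372% of all genes were called higher. Of 8 adipocyte markers 2 passed as higher here, beside the 14.7% of all genes. Pparg was at 6.21 against 2.84 FPKM (0.91, adjusted p = 0.0015) and Cebpa, an adipogenic transcription factor, at 20.6 against 8.60 (1.17, adjusted p = 2.07e-05). Adipoq (0.50, adjusted p = 0.118) and Fabp4 (0.43, adjusted p = 0.132) did not pass.

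The mutant did not show the rise of Plin4 at day 0. Plin4 was at 3.22, 3.82 and 3.55 FPKM in the mutant, below every Cre + NFIA and every Cre library, and 33.0% and 37.9% of all genes were separated in these comparisons. Against Cre + NFIA the difference was −1.20 (95% interval −1.40 to −1.0, adjusted p = 1.3e-05), and against Cre the difference was −0.26 (adjusted p = 0.0678). Fitm2 (−0.45, adjusted p = 0.0278) and Plin2 (−0.22, adjusted p = 0.0257) also passed as lower than in Cre + NFIA, so 3 of 8 did, where 5.59% of all genes did. Fitm2 was lost without replicate 2 or 3 of either group (adjusted p 0.0953 to 0.108) and Plin2 without replicate 1 or 3 of either group (0.0524 to 0.109). With all 24 libraries in the fit neither passed (adjusted p = 0.10 for Fitm2 and 0.379 for Plin2), which left 1 of the 3, and Plin2 did not pass with only these 2 groups (0.0592). Plin2 was higher in the mutant than in Cre (0.22, adjusted p = 0.0167), where 9.26% of all genes passed as higher, but not with all 24 libraries in the fit (adjusted p = 0.276), nor without Cre replicate 2 (0.0604) or mutant replicate 2 (0.0664) or 3 (0.0657). In Cre against ctrl 0 of 8 members passed at day 0 (limma, adjusted p 0.0869 to 0.946), where 3.33% of all genes did. At an unadjusted p under 0.05 there were 2, Plin2 and Bscl2, and limma voom gave 0.

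**Figure D4:**
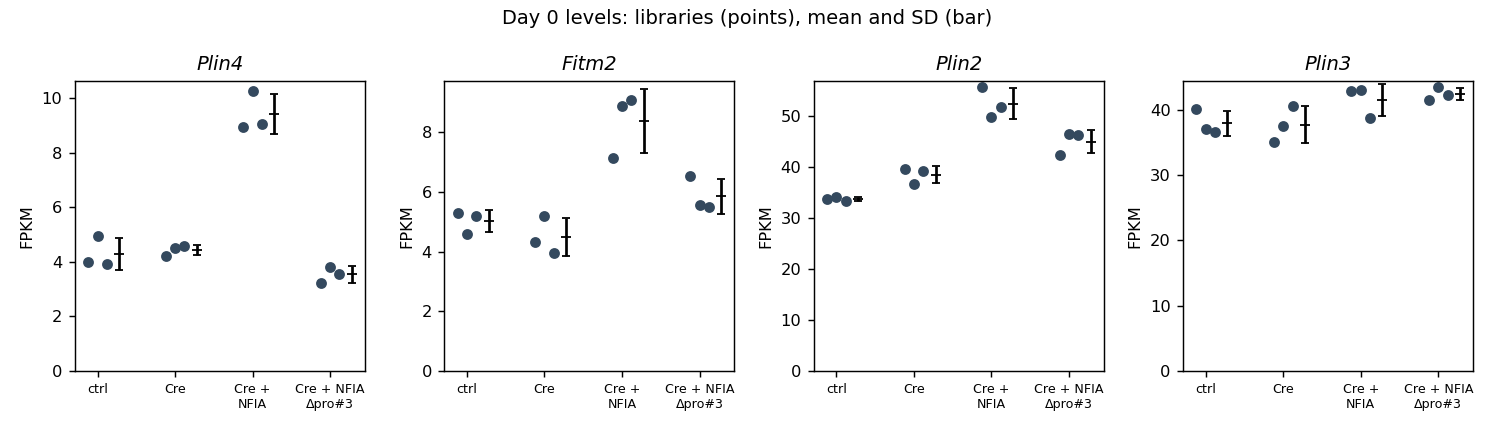
FPKM at day 0 (vertical axes, from 0) of Plin4, Fitm2, Plin2 and Plin3 in the 4 cell types (horizontal axes), with 1 point per library and the mean and SD of 3 libraries as a bar beside them. The Cre + NFIA libraries lie above all others for Plin4 (8.95 to 10.3 FPKM), Fitm2 (7.14 to 9.08) and Plin2 (49.8 to 55.7), and not for Plin3.

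The order of the members at day 7 depended on the cell type. In ctrl it ran Cidec, Plin2, Plin1, Plin4, Fitm2, Bscl2, Plin3 and Plin5, and of these neighbours Fitm2 and Bscl2 overlapped. In Cre + NFIA Bscl2 came before Fitm2 and no neighbours overlapped. In Cre Cidec and Plin2 overlapped, as did Plin1, Plin4, Bscl2 and Fitm2 in turn. In the mutant Plin2 (144 ± 22.9 FPKM) came first. It was followed by Cidec (109 ± 49.7 FPKM), Bscl2 (50.1 ± 7.06), Plin4 (44.0 ± 8.97), Plin3 (43.9 ± 2.98), Plin1 (41.6 ± 21.6) and Fitm2 (21.6 ± 6.36), each of which overlapped the one before it. Plin5 was the lowest tested member in all 4 cell types.

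For each member the 3 genes most like it over the 8 group means of log2(FPKM + 1), among 8782 genes, are given as a description. For Plin1 these were Adipoq, G0s2 and Aldh1a7 (Pearson r at least 0.998), and for Cidec Adipoq, Aldh1a7 and Fabp4. Plin2 was nearest to Pnpla2, Agpat2 and Acsl1, and Plin4 to Por, Hrct1 and 4930402H24Rik. Plin5 was nearest to Klhl25, Ech1 and Pck1, Fitm2 to C130074G19Rik, Apoc1 and Prkag2, and Bscl2 to Mpc1, Irs2 and Mical3. Plin3 had other neighbours, Cdc42ep1 (r = 0.984), Shc2 and Abcc1. Its r with the other members was −0.478 to −0.751, and theirs with each other was 0.889 to 0.999. The 8 points share the change of day, so genes that rise by day 7 resemble each other.

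Other genes of the droplet were followed as 1 list of 24, of which 22 were tested. In Cre against ctrl at day 7, 15 passed as lower, where 22.7% of all genes did, with a median of −0.76. A further 3 passed as higher, a smaller share than the 36.1% of all genes. Pnpla2, Lipe, Dgat2, Mgll and G0s2 were called lower (1.27% of all genes were), but 0 of the 22 were without Cre replicate 3. Pnpla2, the triglyceride lipase of the droplet, was at 142 FPKM in Cre and 503 in ctrl (−1.87, adjusted p = 0.00026). G0s2, its inhibitor, was at 408 and 1188 FPKM (−1.60), and Abhd5, its activator, which passed but was not called, at 36.7 and 92.8 (−1.34). Lipe, hormone-sensitive lipase, was at 95.5 and 322 FPKM (−1.79), and Mgll, monoglyceride lipase, at 41.8 and 131 (−1.67). Dgat2, which makes triglyceride, was at 40.8 and 130 FPKM (−1.70). Rab18, Hsd17b11 and Faf2, which are also found on droplets of cells other than adipocytes, were higher in Cre (0.22, 0.38 and 0.31).

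With full-length NFIA 17 of the 22 passed as higher than in Cre, where 27.0% of all genes did. Rab18, Hsd17b11 and Faf2 passed as lower, a smaller share than the 35.9% of all genes. Dgat2 reached 238 FPKM (2.58, adjusted p = 1.02e-06). The count called higher was 4, where 2.13% of all genes were, with 7 without Cre replicate 2 and 2 without Cre replicate 3. Against ctrl 4 of the 22 passed as higher in Cre + NFIA, where 8.81% of all genes did: Dgat2 (0.88, adjusted p = 0.017), Tmem159 (0.66), Cav1 (0.44) and Ldah (0.36). Hsd17b11 passed as lower (−0.29, adjusted p = 0.0144), where 9.15% of all genes did, and 17 did not pass. In the mutant 11 of the 22 passed as lower than in Cre, where 10.0% of all genes did, and the other 11 did not pass. Acsl1, an acyl-CoA synthetase, was at 69.9 against 287 FPKM (−2.08, adjusted p = 0.000822), and G0s2 at 82.3 against 408 (−2.33). The count called lower was 5, where 0.593% of all genes were, and 3 without mutant replicate 1. The median was −0.26 for this list and −1.33 for the members.

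**Figure D5:**
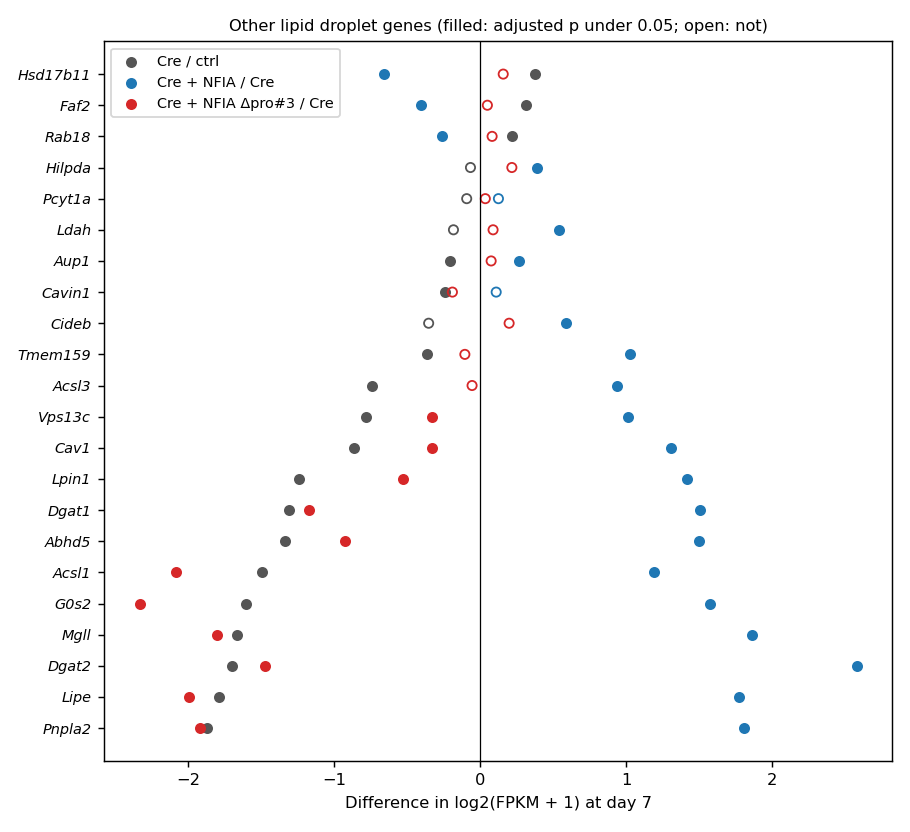
Difference in log2(FPKM + 1) at day 7 (horizontal axis) of 22 other lipid droplet genes (vertical axis) for Cre against ctrl (grey), Cre + NFIA against Cre (blue) and the mutant against Cre (red), with filled points for an adjusted p under 0.05. Pnpla2, Lipe, Mgll, G0s2 and Dgat2 lie below 0 in grey and red and above 0 in blue, and Hsd17b11, Faf2 and Rab18 at the top lie the other way in grey and blue.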

How the data were processed

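RNA-seq libraries (TruSeq stranded mRNA) of 24 samples were analysed as deposited FPKM. Per the paper's methods and the labels, the authors aligned reads with STAR 2.5.3a to mm9, counted uniquely mapped reads on the strand of each gene and scaled them by gene length and library total. All values (100%, tolerance 0.01) were whole multiples of 1 read, which gave 7.73 to 14.62 M reads per library, and 3 reads per library were taken as the floor, for counting error only. Differences were fitted to log2(FPKM + 1) with limma 3.58.1 (R 4.3.3) with a mean-variance trend, over 12 libraries within a day and 24 between days. The authors' figure legends name DESeq2, which needs counts. Shares were compared by exact permutation tests (SciPy 1.17.1). Replicate libraries differed by more than sampling noise (chi-square per degree of freedom 2.22 to 16.5 over 24 pairs). The limma fit, with a trend and with voom, was tested on simulated data for day 7 Cre against ctrl only. The members, the droplet gene list, the marker lists and the rule for most similar genes were chosen with earlier results of these data known. Alternatives covered pseudocounts, filters, scaling, the libraries in the fit, limma voom on recovered reads, a replicate block, thresholds and leaving out each library. There were 0 columns of other samples. Sequences are from RefSeq promoters, placed on NCBIM37 by exact match, and positions from GENCODE vM1.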

Additional observations from a re-analysis of the deposited data

Results flagged for a closer look

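For 6 results the change from day 0 to day 7 differed between cell types by at least 3-fold on the fitted scale, by limma's test of the interaction on log2(FPKM + 1). Plin2 rose less in Cre than in ctrl (−1.59, adjusted p = 1.18e-06), as did Plin5 (−2.12, adjusted p = 2.63e-06), where 1.27% of all genes were called lower. Plin5 rose more in Cre + NFIA than in Cre, by 2.58 (adjusted p = 1.5e-07), where 1.70% of all genes were called higher. Against Cre, the mutant rose less for Plin1 (−2.24, adjusted p = 0.00071), Cidec (−2.68, adjusted p = 0.000167) and Fitm2 (−1.76, adjusted p = 5.67e-05), where 0.736% of all genes were called lower. The values of Plin1, Plin5 and Cidec at day 0 rest on 0 to 29 reads per library. These genes met the filter through day 7 alone and were nearly silent at day 0 in every cell type. Their interactions therefore mostly restate the day 7 differences and are no independent result. With limma voom on recovered reads the adjusted p was 0.127 for Plin5 in Cre against ctrl, 0.439 for Plin1 and 0.300 for Cidec in the mutant against Cre.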

How the results depend on the processing

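Over the alternatives the differences of single members kept their direction and their side of the threshold in 2109 cases, lost the threshold in 72, gained it in 6 and changed sign in 18. The sign changes touched values near 0 that had not passed. In Cre + NFIA against ctrl at day 7, Plin1 was −0.018 and Fitm2 −0.025 with median-of-ratios size factors, Fitm2 was −0.037 with quantile normalization, and over the fits without 1 library Plin1 ranged from −0.035 to 0.084 and Fitm2 from −0.023 to 0.030. At day 0 such fits ranged from −0.065 to 0.040 for Plin3 and −0.00043 to 0.13 for Plin4 in Cre against ctrl, from −0.063 to 0.058 for Bscl2 in Cre + NFIA against Cre, and from −0.017 to 0.057 for Plin3 in the mutant against Cre + NFIA. From day 0 to day 7 in the mutant Plin3 was −0.011 with median-of-ratios size factors and −0.0090 to 0.073 without 1 library, and its interaction of the mutant against Cre was 0.0068 with quantile normalization and −0.11 to 0.00010 without 1 library. The cause was not tested.

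Counts of members called moved as follows. Cre against ctrl at day 7 (2 called) gave 1 with a pseudocount of 5, 4 with median-of-ratios size factors, 1 with quantile normalization, 8 with no fold limit, 6 at 2-fold and 1 to 5 without 1 library. Cre + NFIA against Cre (1) gave 3 with size factors, 8 with no fold limit, 7 at 2-fold and 1 to 4 without 1 library. The mutant against Cre (2) gave 7 with no fold limit, 6 at 2-fold and 2 to 4 without 1 library. At day 0 (0 called) no fold limit gave 4 in Cre + NFIA against Cre, 1 in the mutant against Cre and 3 in the mutant against Cre + NFIA, the last with 1 at 2-fold. The rise in the mutant (5) gave 3 with a pseudocount of 5 and 3 to 5 without 1 library. Of these 5, Plin1 and Cidec met the filter through day 7 alone, so their calls are no independent result. The interaction of Cre against ctrl (2) gave 1 with a pseudocount of 5, 1 at a mean FPKM of at least 5, 4 with size factors, 1 with quantile normalization, 1 with limma voom, 8 with no fold limit, 7 at 2-fold and 1 to 4 without 1 library. That of Cre + NFIA against Cre (1) gave 0 at a mean FPKM of at least 5, where fewer genes are tested, 8 with no fold limit and 4 at 2-fold. That of the mutant against Cre (3) gave 1 with limma voom, 7 with no fold limit and 6 at 2-fold. Among the members called in these interactions, Plin1, Plin5 and Cidec met the filter through day 7 alone, so their calls are no independent result. For the other droplet genes, Cre against ctrl (5) gave 18 with no fold limit, 9 at 2-fold and 0 to 6 without 1 library. Cre + NFIA against Cre (4) gave 7 with size factors, 20 with no fold limit, 12 at 2-fold and 2 to 7 without 1 library, and the mutant against Cre (5) gave 11 with no fold limit and 3 to 6 without 1 library. With no fold limit, 58.8% of all genes passed in Cre against ctrl at day 7. The share was 63.0% in Cre + NFIA against Cre and 17.7% in the mutant against Cre. The 3 comparisons at day 0, in the order above, were at 27.6%, 18.3% and 10.1%. The 3 interactions were at 49.2%, 48.9% and 18.2%. Each count of 8 included Plin3, which went the other way from the other 7. Size factors moved the median of all genes by −0.13 in the mutant against ctrl at day 7 and by −0.11 and 0.11 in the first 2 interactions.

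The labels do not say whether a replicate number marks a batch shared between groups. In no comparison did every pair of same-numbered libraries correlate above 0.1 (for the days in ctrl the pairs were at −0.27 to −0.097). For the mutant against ctrl at day 7 the pairs were at 0.036 to 0.22, and libraries of different numbers averaged −0.057. These correlations do not decide whether a batch was shared. With the replicate block, Plin1 in Cre + NFIA against Cre at day 0 (adjusted p = 0.0716) and Fitm2 in the mutant against Cre + NFIA at day 0 (0.0557) no longer passed, Plin4 in the mutant against Cre at day 0 did (0.0336), and no other call of a member changed. Low depth limits Plin1, Plin5, Cidec and Fitm1 at day 0, where 0 to 29 reads per library stand behind each value.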
